A study of Danio rerio with 9 samples.

Results

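The 200 longest transcripts expressed in cells taken from zebrafish trunks are described here. They were chosen by the deposited transcript length, among the 23682 of 52216 transcript IDs that had at least 10 estimated counts in 3 or more of 9 libraries. They make up 0.845% of those 23682 transcripts and run from 10562 to 88553 bases, with a median of 12932.5 bases. The deposited files list transcript IDs without gene names, and 0 of the 200 IDs were found in the gene tables at hand, so members are given by ID and no protein or pathway is assigned to them.

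The libraries came from 3 groups of 3 samples, all from 72 hours post fertilization embryos of the AB* background with the front part of each embryo removed. Schwann cells, the glia of peripheral nerves, were collected as cells positive for both reporters of Gt(foxd3:mCherry);Tg(sox10:mEGFP) fish. Oligodendrocyte lineage cells, which form the myelin of brain and spinal cord, with their precursors, were collected as cells positive for both reporters of Tg(olig2:dsred);Tg(sox10:megfp) fish. Neurons were collected as nbt-positive cells of Tg(nbt:dsred) fish. Each group is thus defined by its reporters, and the groups come from different transgenic fish, so population and fish cannot be told apart. The labelled cell types were not checked against marker genes, because the IDs carry no gene names. The labels give 1750 ± 750 cells per sample. Whether the 3 samples of a group had separate parents or sorting runs is not said. The p-values therefore rest on the spread among these libraries alone, and that spread may be technical. Library totals ranged from 7123251 to 11191844 counts in Schwann cells, from 11869510 to 15266878 in oligodendrocyte lineage cells and from 11439759 to 17126213 in neurons.

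Very long messenger RNAs in vertebrates encode proteins such as giant muscle scaffold proteins, cytoskeletal linkers, ion channels, adhesion receptors and large extracellular matrix components. Their genes take long to transcribe, and many are known for roles in axons, synapses and the contacts between glia and axons. A long transcript also yields more sequenced fragments per molecule than a short one. Levels are therefore given here mainly in TPM, the usual unit of transcript abundance per length. TPM divide counts by effective length, and shares of counts do not. Whether reads covered these transcripts along their whole length cannot be seen in the deposited values, and TPM would be too low where they did not.

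Lengths fell off quickly within the list. The longest were ENSDART00000125953.3 at 88553 bases, ENSDART00000109099.3 at 84321 bases and ENSDART00000126871.2 at 67298 bases, followed by ENSDART00000160284.2 at 30840 bases and ENSDART00000148520.2 at 27036 bases. Only 7 members exceeded 20000 bases and 56 exceeded 15000 bases, while 69 were under 12000 bases. The last members inside the limit had 10580, 10568 and 10562 bases, and the first transcripts outside it had 10560, 10558 and 10557 bases. The files hold 293 transcripts of at least 10562 bases, so 93 of this length did not pass the count rule, 36 of them with no count in any library. The comparison list holds the 200 transcripts in the middle of the same 23682 ordered by length, from 2235 to 2273 bases. The median member was 5.74 times as long as the median of that list.

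Most members shared at least some reads with other transcripts. Only 16 of the 200 longest had whole-number counts in every library (within 1e-06), against 42 of the 200 of median length. A small fraction in a single library is enough to miss this mark, so how much of the reads was shared was not measured. The longest also had more counts, with a mean library median of 465 against 167 in neurons. The part of this in the difference was not tested. A fractional count means that reads were divided between transcripts, so members that are forms of the same gene cannot be counted as separate observations, and the files do not say which those are.

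Long transcripts took more of the counts than transcripts of median length and less of the TPM. The 200 longest held 1.14%, 1.62% and 1.36% of the counts in Schwann cells, 1.04%, 1.14% and 1.17% in oligodendrocyte lineage cells, and 1.31%, 1.37% and 0.905% in neurons. Group means were 1.38% ± 0.239 in Schwann cells, 1.12% ± 0.0666 in oligodendrocyte lineage cells and 1.197% ± 0.255 in neurons (SD, n = 3 each), and the 3 groups overlapped. The transcripts of median length held 0.725% ± 0.0992, 0.649% ± 0.0601 and 0.670% ± 0.0300 of the counts in the same order of groups. In each of the 9 libraries the longest exceeded the median list, by 1.39 to 2.14 times. A transcript outside both lists, ENSDART00000009393.7, held 7.91% ± 0.735 of all counts in neurons. It held 0.116% in Schwann cells and 0.111% in oligodendrocyte lineage cells. Its counts stayed in the totals, which lowers the count shares most in neurons.

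Divided by length, the order turned round. The 200 longest held 0.181% ± 0.0177 of TPM in Schwann cells, 0.152% ± 0.0242 in oligodendrocyte lineage cells and 0.178% ± 0.0410 in neurons (SD, n = 3 each). The median list held 0.686% ± 0.0726, 0.613% ± 0.0491 and 0.701% ± 0.0459 of TPM. The longest thus stood at 0.197 to 0.317 times the TPM share of the median list over the 9 libraries, with the 3 groups again overlapping. No test was made on these sums, since the members were chosen with earlier results known.

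**Figure D1:**
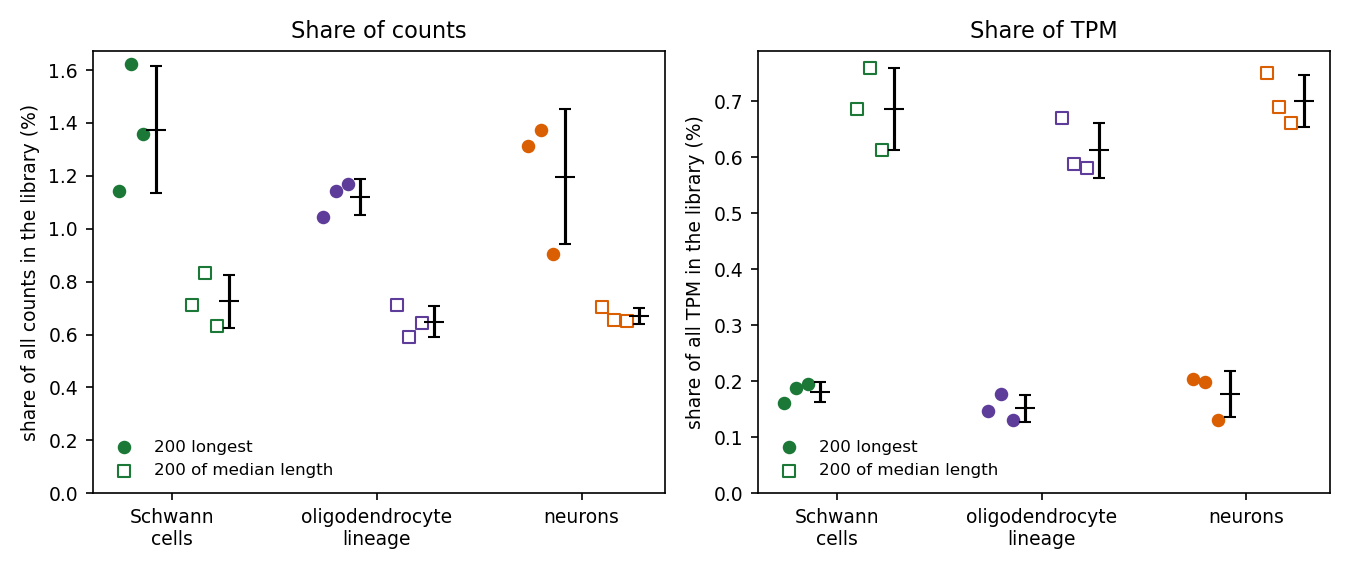
Share of all counts (left, %) and of all TPM (right, %) held by the 200 longest expressed transcripts (filled circles) and by 200 transcripts of median length (open squares) in each library of Schwann cells, oligodendrocyte lineage and neurons, with the mean and SD of each group in black (n = 3). The longest lie above the median list for counts in every library and below it for TPM in every library.

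Neuron libraries held more of the members than either glial group. At an equal depth of 7123174 counts per library, 107, 103 and 158 of the 200 longest had at least 10 counts in Schwann cells, 158, 150 and 117 in oligodendrocyte lineage cells, and 187, 165 and 164 in neurons. The lowest neuron library exceeded the highest glial one, while the glial groups overlapped. Schwann cells replicate 3 and oligodendrocyte lineage replicate 3 stood apart from the other libraries of their groups, in opposite directions. Without Schwann cells replicate 3, the mean gap between Schwann cells and neurons at the deposited depth changed to -71.67 members, against -53.33 with it. The median list gave the same order of groups. There 67, 61 and 118 passed in Schwann cells, 142, 123 and 104 in oligodendrocyte lineage cells, and 167, 146 and 160 in neurons. In sorted bulk samples, a transcript found in fewer cells and a transcript with fewer copies per cell cannot be told apart.

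Of the 200 longest, 55 had at least 10 counts in all 9 libraries as deposited, against 22 of the median list. All 3 libraries of a group reached that level for 75 members in Schwann cells, 98 in oligodendrocyte lineage cells and 146 in neurons. In the median list they did so for 27, 85 and 124 transcripts in the same order of groups. The members that were under 10 counts in every library of a group numbered 27 in Schwann cells, 14 in oligodendrocyte lineage cells and 0 in neurons. The median list had 56, 28 and 2 such transcripts, so this order of groups was not particular to the longest. The count rule was met through a single group by 2 members, both in neurons, so these had to differ between groups. It was met that way by 12 transcripts of the median list, 11 of them through neurons and 1 through Schwann cells.

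The typical member was a low-abundance transcript, and the count rule admits long transcripts at a lower TPM than short ones. The median member stood at 0.347, 0.223 and 3.89 TPM in Schwann cells, 2.05, 2.47 and 0.579 TPM in oligodendrocyte lineage cells, and 5.97, 4.39 and 3.78 TPM in neurons. Schwann cells replicate 3 lay within the range of neurons, so those groups overlapped, while oligodendrocyte lineage cells lay below neurons in all libraries. The median list had medians of 0.113, 0.128 and 5.30 TPM in Schwann cells, 8.30, 5.22 and 1.52 TPM in oligodendrocyte lineage cells, and 14.2, 9.27 and 12.6 TPM in neurons. In Schwann cells replicates 1 and 2 the median of the longest was thus above that of the median list, and in the other 7 libraries below it. The median list had a median count of only 1 in each of those replicates, against 20.6 and 12.8 for the longest, so these medians are near the floor. At the upper quartile the longest were below there too, at 6.74 against 8.59 TPM in replicate 1 and 7.06 against 8.24 TPM in replicate 2. Over all libraries, 61 members never reached 10 TPM, 5 reached 100 TPM in some library and 5 were at or above 10 TPM in every library.

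**Figure D2:**
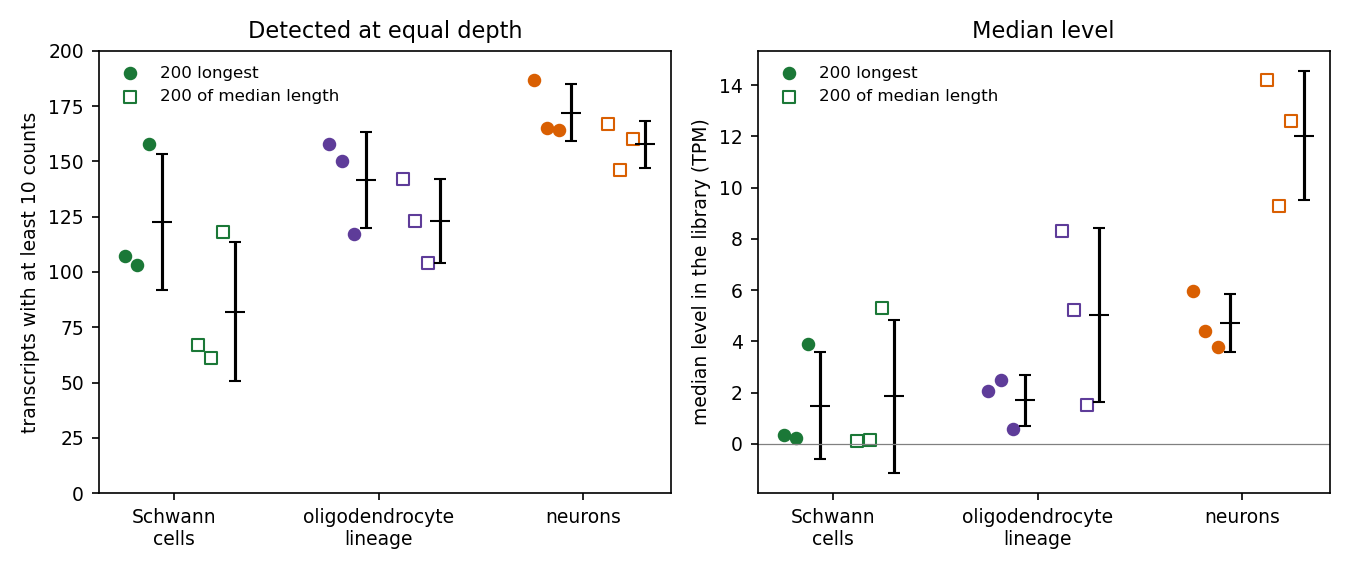
Number of transcripts with at least 10 counts after thinning every library to the same total (left) and median level in TPM (right) for the 200 longest (filled circles) and 200 of median length (open squares), per library with the group mean and SD in black (n = 3). Neuron libraries hold 164 to 187 of the longest, and Schwann cell libraries 103 to 158.

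A few members carried much of the counts, above all in glia. The 10 leading members of a library took 45.0%, 51.9% and 34.7% of the members' counts in Schwann cells, 43.6%, 36.7% and 45.7% in oligodendrocyte lineage cells, and 25.2%, 31.1% and 23.9% in neurons. Each neuron library lay below each glial library. In the median list the 10 leading transcripts took 51.2% ± 11.6 in Schwann cells, 39.6% ± 3.34 in oligodendrocyte lineage cells and 41.2% ± 3.44 in neurons (SD, n = 3 each), with overlap between all groups. Of the 200 longest, 62 had their highest mean TPM in Schwann cells, 53 in oligodendrocyte lineage cells and 85 in neurons. These are 31%, 26.5% and 42.5% of the members, against 33.0%, 32.2% and 34.8% of all 23682 transcripts. In the median list the numbers were 58, 63 and 79 of 200, so a lean to neurons was also seen there.

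The 3 longest transcripts overlapped between all groups and varied widely between libraries of a group. ENSDART00000125953.3 was at 0.00957, 24.7 and 0.990 TPM in Schwann cells, 3.09, 2.69 and 15.7 TPM in oligodendrocyte lineage cells, and 6.22, 20.9 and 5.94 TPM in neurons. ENSDART00000126871.2 was at 0, 19.5 and 0.368 TPM in Schwann cells, 2.99, 0.725 and 20.5 TPM in oligodendrocyte lineage cells, and 1.93, 9.04 and 4.31 TPM in neurons. ENSDART00000109099.3 was at 0, 0.0917 and 2.61 TPM in Schwann cells, 1.19, 0.0807 and 12.3 TPM in oligodendrocyte lineage cells, and 2.43, 7.75 and 5.75 TPM in neurons. All 3 were near 0 in Schwann cells replicate 1 and had their group's highest level in oligodendrocyte lineage replicate 3 and in neurons replicate 2. Together they took 0.00411% to 12.3% of the members' counts in Schwann cells, 1.35% to 18.9% in oligodendrocyte lineage cells and 3.37% to 11.4% in neurons. Without them the members' share of counts was 1.30% ± 0.143 in Schwann cells, 1.03% ± 0.0913 in oligodendrocyte lineage cells and 1.11% ± 0.236 in neurons (SD, n = 3 each).

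The members ranked 4 and 5 by length were at or under 6.45 TPM and also uneven. ENSDART00000160284.2 was at 0, 0.0241 and 3.37 TPM in Schwann cells, 2.28, 2.39 and 0 TPM in oligodendrocyte lineage cells, and 6.45, 3.22 and 3.34 TPM in neurons. ENSDART00000148520.2 was at 0.0158, 0 and 3.16 TPM in Schwann cells, 0.891, 0.0602 and 0.211 TPM in oligodendrocyte lineage cells, and 3.66, 1.99 and 4.07 TPM in neurons. Both were detected in every neuron library and were at or near 0 in some glial libraries. Of the 5 members next in length, taken up after their values were seen, 2 shared the pattern of the 3 longest. ENSDART00000059460.5, with 23044 bases, was at 0.0279, 0.0630 and 7.33 TPM in Schwann cells, 2.63, 0.0306 and 50.2 TPM in oligodendrocyte lineage cells, and 1.72, 25.1 and 8.71 TPM in neurons. ENSDART00000143888.2, with 19401 bases, was at 0.0248, 37.3 and 1.497 TPM in Schwann cells, 1.93, 0.0209 and 11.3 TPM in oligodendrocyte lineage cells, and 5.93, 24.7 and 6.22 TPM in neurons. The other 3 did not share it, and ENSDART00000165606.1, with 19846 bases, stayed between 1.13 and 4.09 TPM in all 9 libraries.

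**Figure D3:**
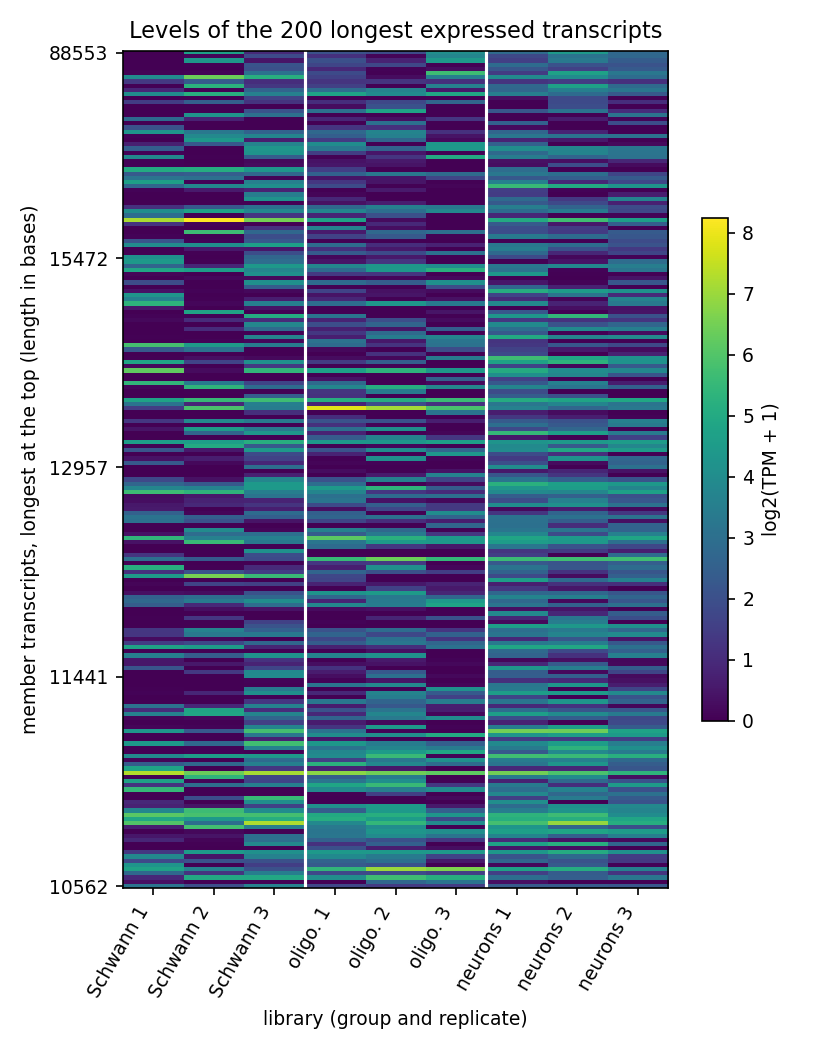
Level of each of the 200 longest expressed transcripts in log2(TPM + 1), a row per transcript with the longest at the top, a column per library of Schwann cells, oligodendrocyte lineage (oligo.) and neurons. Levels of 0 are most common in Schwann cells replicates 1 and 2 and oligodendrocyte lineage replicate 3, where 52, 61 and 54 members had no counts after rounding, against 8 to 20 in neurons.

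Many members had many estimated counts in a library and few in another of the same group. At equal depth, 145 members reached 100 counts in some Schwann cell library, and 51.0% of these had under 10 counts in another Schwann cell library. The share was 40.3% in oligodendrocyte lineage cells and 23.7% in neurons. In the median list the shares were 78.8%, 40.9% and 22.1%. No count at all in another library was found for 29.7% of such members in Schwann cells, 25.5% in oligodendrocyte lineage cells and 15.0% in neurons, against 46.0%, 27.8% and 13.0% in the median list. ENSDART00000090000.4, with fractional counts, had 2.09e-07 counts in Schwann cells replicate 1 and 3072 in replicate 2. ENSDART00000021693.8, with whole-number counts in every library, had 1085 and 2 counts in the same libraries. How far the division of reads between transcripts adds to these swings was not tested. The coefficient of variation of normalised counts over the 9 libraries had a median of 1.22 in the longest, 1.27 in the median list and 1.16 over all 23682 transcripts.

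The most abundant members per length were found in different groups. ENSDART00000135230.1, with 10963 bases, was at 157, 81.5 and 140 TPM in Schwann cells, 110, 86.3 and 71.8 TPM in oligodendrocyte lineage cells, and 88.8, 59.4 and 40.4 TPM in neurons. It had the highest mean level of all members, and its groups overlapped. ENSDART00000090679.6, with 15886 bases, was at 145, 301 and 89.8 TPM in Schwann cells, 25.7, 0.186 and 0 TPM in oligodendrocyte lineage cells, and 31.7, 51.3 and 23.4 TPM in neurons. Every Schwann cell library lay above every other library, yet the difference from oligodendrocyte lineage cells did not pass (log2 fold change 4.26, SE 2.11, adjusted p = 0.341 in edgeR's quasi-likelihood test), nor did that from neurons (2.29, SE 1.94, adjusted p = 0.740).

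ENSDART00000167446.1, with 13402 bases, had its highest mean in oligodendrocyte lineage cells, with 1.74, 59.1 and 9.95 TPM in Schwann cells, 235, 136 and 57.1 TPM in oligodendrocyte lineage cells, and 11.2, 5.52 and 8.84 TPM in neurons. ENSDART00000036779.7, with 10605 bases, was at 25.8, 11.2 and 3.16 TPM in Schwann cells, 41.7, 127 and 99.8 TPM in oligodendrocyte lineage cells, and 25.9, 33.6 and 11.4 TPM in neurons. In oligodendrocyte lineage cells both lay above all neuron libraries, and ENSDART00000036779.7 also above all Schwann cell libraries. None of these differences passed in edgeR's quasi-likelihood test on all 9 libraries. For ENSDART00000036779.7 the edgeR adjusted p was 0.433 against neurons and 0.200 against Schwann cells. For ENSDART00000167446.1 against neurons the edgeR adjusted p was 0.196. That difference passed in 3 of 10 other analysis settings and in 0 of 9 fits that left out a library. ENSDART00000178366.1, with 10785 bases, was at 63.6, 6.91 and 149.2 TPM in Schwann cells, 13.7, 43.3 and 14.6 TPM in oligodendrocyte lineage cells, and 53.9, 122 and 34.5 TPM in neurons, with overlap between all groups.

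The steadiest members had similar levels in all 3 groups. ENSDART00000090254.6, with 13162 bases, was at 23.0, 23.8 and 34.5 TPM in Schwann cells, 20.1, 19.2 and 23.9 TPM in oligodendrocyte lineage cells, and 18.0, 20.9 and 22.7 TPM in neurons. ENSDART00000172800.1, with 12562 bases, was at 7.84, 4.68 and 4.57 TPM in Schwann cells, 5.505, 7.29 and 5.14 TPM in oligodendrocyte lineage cells, and 7.81, 7.35 and 7.61 TPM in neurons. These were picked for their low spread, so their evenness is a description. Only 10 of the 200 longest, 5%, had a coefficient of variation under 0.5, near the 5.74% of all 23682 transcripts.

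Schwann cells were then compared with oligodendrocyte lineage cells, which asks how the glia of peripheral and central nerves differ. All 200 members passed the filter on low counts and entered the test. Of these, 2 fell in Schwann cells and 0 rose (edgeR's quasi-likelihood test, adjusted p under 0.05), which is 1.00% of members against a background of 0.795% of 23408 tested transcripts called in either direction, 0.226% higher and 0.568% lower. ENSDART00000174262.1, with 12282 bases, was at 7.08, 4.07 and 2.57 TPM in Schwann cells, against 45.7, 83.2 and 43.6 TPM in oligodendrocyte lineage cells and 48.2, 51.9 and 51.9 TPM in neurons. The Schwann cell libraries did not overlap with the others, and their mean was 12.6-fold lower than in oligodendrocyte lineage cells (log2 fold change -3.67, SE 0.637, adjusted p = 0.0398). ENSDART00000108507.3, with 11013 bases, was at 0.0199, 0.0689 and 0 TPM in Schwann cells, against 13.0, 21.7 and 28.4 TPM in oligodendrocyte lineage cells and 3.78, 13.7 and 9.85 TPM in neurons. The Schwann cell libraries held 1, 3 and 0 counts of it, against 1126, 1867 and 2104 counts in oligodendrocyte lineage cells (log2 fold change -9.52, SE 1.71, adjusted p = 0.0443).

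Both calls were close to the threshold. ENSDART00000174262.1 passed in 4 of 10 other settings and in 0 of 9 fits that left out a library (edgeR adjusted p from 0.0532 to 0.144). ENSDART00000108507.3 passed in 6 of 10 and in 1 of 9 (edgeR adjusted p from 0.0438 to 0.129, passing without Schwann cells replicate 3). With DESeq2 size factors in edgeR, or with upper-quartile factors, 0 of the 200 passed, with 40 and 41 at an unadjusted p under 0.05, while DESeq2 itself called 36 members, 18% against 14.3% of all tested. Of these, 14 were higher, 7% of members against a background of 5.48%, and 22 lower, 11% against 8.83%. Voom with quality weights called 2, 1% of members against 2.18% of all tested. Limma on log2(TPM + 1) called 5, 2.5% against 3.79%. With the TMM factors used elsewhere, 41 members reached an unadjusted p under 0.05, 20.5% against 17.1% of all tested. Of these, 17 were higher in Schwann cells, 8.5% of members against a background of 6.35%, and 24 were lower, 12% against 10.8%. In the median list 56 of 200 reached that level, 19 higher and 37 lower.

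Without a call, some members lay higher in every Schwann cell library than in the other glia. ENSDART00000170576.1, with 12186 bases, was at 21.6, 93.2 and 46.9 TPM in Schwann cells, against 2.34, 0.0105 and 0 TPM in oligodendrocyte lineage cells and 2.50, 0.220 and 4.75 TPM in neurons (adjusted p = 0.261 against oligodendrocyte lineage cells and 0.376 against neurons in edgeR's quasi-likelihood test). ENSDART00000088484.6, with 20569 bases, was at 14.5, 83.2 and 35.3 TPM in Schwann cells, 2.00, 0.205 and 10.6 TPM in oligodendrocyte lineage cells and 13.9, 14.8 and 6.49 TPM in neurons (edgeR adjusted p = 0.266 against oligodendrocyte lineage cells). Against oligodendrocyte lineage cells, ENSDART00000170576.1 passed in 2 of 10 other settings and ENSDART00000088484.6 in 0. Against neurons, ENSDART00000170576.1 passed in 1 of 10. In all, 12 members, 6%, lay above oligodendrocyte lineage cells in every Schwann cell library, and 19 members, 9.50%, lay below. The background was 5.72% above and 11.3% below, so both shares were near that of all tested transcripts. The fitted log2 fold change was above 0 for 98 members, 49% against 44.9% of all tested and 81 of 200 in the median list. Its median was -0.01 in the longest and -0.34 in the median list, against -0.20 for everything tested. Upper-quartile factors moved these to 0.41 for the longest and 0.10 for everything tested, and DESeq2 size factors to 0.16 and -0.01, so the members' sign depended on the scaling while their place above the median of everything tested did not under these 3 scalings.

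Against neurons, which sets peripheral glia against nerve cells, 0 members were called in Schwann cells by edgeR's quasi-likelihood test, where 0.355% of tested transcripts were. The background was 0.0555% higher and 0.299% lower. An unadjusted p under 0.05 was reached by 26 members, 13% against 16.0% of all tested. Of these, 1 was higher in Schwann cells, 0.5% of members against a background of 2.7%, and 25 were lower, 12.5% against 13.3%. In the median list 44 of 200 reached that level, 3 higher and 41 lower. DESeq2 called 24 of the 200, 12% against 13.5% of all tested. By direction, 1 was higher (0.5%, background 2.67%) and 23 were lower (11.5%, background 10.8%). Voom with quality weights called 17 members, 8.5% against 7.16%, and limma on log2(TPM + 1) called 12, 6% against 7.68%. ENSDART00000174262.1 was 11.1-fold lower in Schwann cells at the levels given above (log2 fold change -3.51, SE 0.632, edgeR adjusted p = 0.0548). ENSDART00000013228.8, with 10753 bases, was at 0, 0.141 and 0.0157 TPM in Schwann cells, against 8.25, 18.5 and 15.8 TPM in oligodendrocyte lineage cells and 24.1, 27.5 and 22.6 TPM in neurons (edgeR adjusted p = 0.0587 against neurons and 0.0579 against oligodendrocyte lineage cells). Its Schwann cell libraries held 0, 6 and 1 counts, and those of both other groups at least 699. Against neurons, ENSDART00000174262.1 passed in 3 of 10 other settings and ENSDART00000013228.8 in 4 of 10. Each passed in 0 of 9 fits that left out a library. In the other direction, ENSDART00000160008.1, with 13944 bases, was at 55.2, 21.7 and 10.03 TPM in Schwann cells, against 1.55, 3.84 and 2.42 TPM in neurons (edgeR adjusted p = 0.166). It passed in 1 of 10 other settings.

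Members lay below neurons in every Schwann cell library in 43 cases, 21.5%, and above in 10, 5%. All tested transcripts gave 19.1% and 6.4%, both close to the members' shares. The fitted log2 fold change was above 0 for 76 members, 38.0% against 43.7% of all tested and 73 of 200 in the median list. Its median was -0.61 in the longest and -0.92 in the median list, against -0.31 for everything tested. With upper-quartile factors the members stood at -0.17, against 0.13 for everything tested. The comparisons of Schwann cells with oligodendrocyte lineage cells and with neurons share the Schwann cell libraries, so ENSDART00000174262.1, ENSDART00000108507.3 and ENSDART00000013228.8 appear low in both for the same 3 libraries.

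Oligodendrocyte lineage cells were last set against neurons, and here too edgeR's quasi-likelihood test called 0 members, with 0.0854% of tested transcripts called. The background was 0.0342% higher and 0.0513% lower. An unadjusted p under 0.05 was reached by 20 members, 10% against 11.4% of all tested. Of these, 3 were higher, 1.5% of members against a background of 2.73%, and 17 lower, 8.5% against 8.67%. In the median list 30 of 200 reached that level, 3 higher and 27 lower. DESeq2 called 17 members, 8.5% against 8.69% of all tested. By direction, 1 was higher (0.5%, background 1.91%) and 16 were lower (8%, background 6.78%). Voom with quality weights called 14, 7% against 9.1%, and limma on log2(TPM + 1) called 8, 4% against 5.43%. ENSDART00000167446.1 was 16.7-fold higher in oligodendrocyte lineage cells at the levels given above (log2 fold change 4.06, SE 1.17, edgeR adjusted p = 0.196). ENSDART00000146394.3, with 18608 bases, was at 15.4, 35.9 and 10.95 TPM in Schwann cells, 26.2, 14.5 and 28.7 TPM in oligodendrocyte lineage cells, and 10.5, 6.38 and 3.89 TPM in neurons (edgeR adjusted p = 0.398 for oligodendrocyte lineage cells against neurons). In this comparison ENSDART00000167446.1 passed in 3 of 10 other settings and ENSDART00000146394.3 in 0 of 10.

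The members found through neurons alone were ENSDART00000112067.3, with 13717 bases, and ENSDART00000138754.3, with 11949 bases. Neither had a count in the 3 Schwann cell or 3 oligodendrocyte lineage libraries, where 3 counts over the group would have been 0.112 CPM and 0.0719 CPM. This floor covers counting error only, since libraries amplified by PCR without molecular identifiers do not count molecules. Both members had fractional counts in neurons, and the floor does not cover how reads were divided between transcripts. In neurons they were at 16.6, 12.9 and 3.39 TPM and at 13.8, 0.900 and 4.34 TPM. Since the count rule chose them through neurons, these values are a description and no test of them is given. A total of 46 members, 23.0%, these 2 among them, lay below neurons in every oligodendrocyte lineage library, against 15.8% of all tested, and 12, 6%, lay above, against 9.45%. In the median list 39 of 200 lay below in the same way and 17 above. The fitted log2 fold change was above 0 for 77 members, 38.5% against 48.6% of all tested and 85 of 200 in the median list. Its median was -0.53 in the longest and -0.37 in the median list, against -0.06 for everything tested. No test of the difference between members and other transcripts was made.

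**Figure D4:**
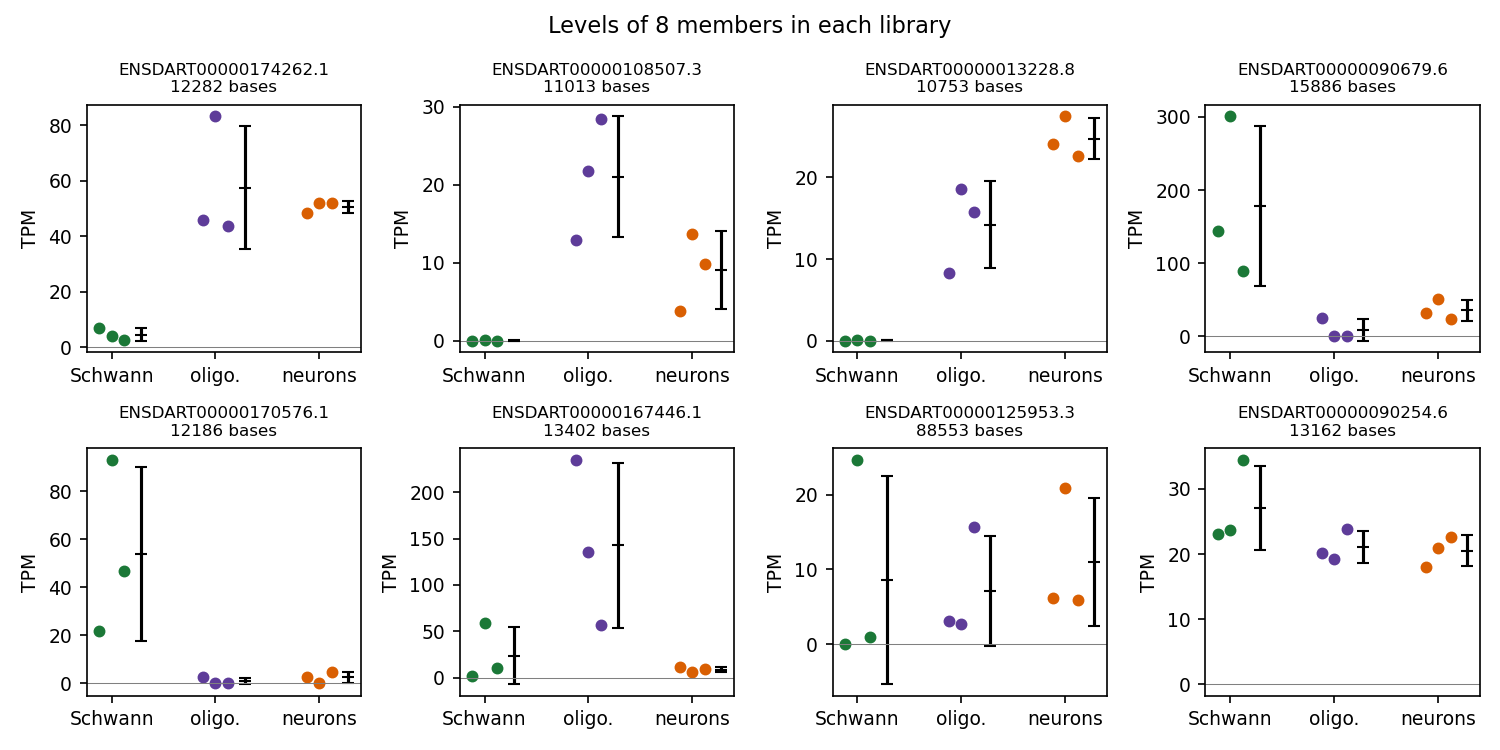
Level in TPM of 8 members in each library of Schwann cells, oligodendrocyte lineage (oligo.) and neurons, with the group mean and SD in black (n = 3). The first 2 panels show the members called lower in Schwann cells than in oligodendrocyte lineage cells, and the panel of the 88553-base transcript shows 1 high library in each group.

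Within the list, the longest members had a lower mean level per length than the shortest in each group, with a wide spread between libraries. The 50 longest members, of 15472 bases or more, had a median of 1.14 ± 1.85 TPM in Schwann cells, 0.771 ± 0.713 TPM in oligodendrocyte lineage cells and 3.35 ± 1.02 TPM in neurons (SD, n = 3 each). The 50 shortest members, of 11424 bases or fewer, had 3.45 ± 4.92, 5.76 ± 4.17 and 7.90 ± 3.23 TPM in the same groups. Of all counts, the 50 longest held 0.517% ± 0.292 in Schwann cells, 0.273% ± 0.168 in oligodendrocyte lineage cells and 0.308% ± 0.0894 in neurons. The 50 shortest held 0.372% ± 0.0968, 0.357% ± 0.0870 and 0.371% ± 0.112, so the longest had the higher mean in Schwann cells and the lower mean in the other groups, by less than 1 SD of the 50 longest in each.

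When the 23682 transcripts were ordered by length and parted into 10 bins, detection was higher in the longest bin than in the shortest in each group. In the longest bin, 5504 to 88553 bases, 66.0% ± 14.2 of transcripts had at least 10 counts in Schwann cells, 77.7% ± 11.1 in oligodendrocyte lineage cells and 89.9% ± 4.47 in neurons (SD, n = 3 each). In the shortest bin, 108 to 824 bases, the shares were 46.4% ± 15.3, 62.7% ± 11.4 and 70.6% ± 8.62. Of all counts, the longest bin held 15.3% ± 0.860 in Schwann cells, 14.2% ± 1.18 in oligodendrocyte lineage cells and 22.8% ± 1.26 in neurons. ENSDART00000009393.7, a transcript of 5797 bases outside the list and singled out after its values were seen, held 0.116% ± 0.108, 0.111% ± 0.112 and 7.91% ± 0.735 of the counts in the same groups. Of all counts, the rest of the bin held 15.2% ± 0.753 in Schwann cells, 14.1% ± 1.102 in oligodendrocyte lineage cells and 14.9% ± 0.919 in neurons. The counts of ENSDART00000009393.7 stayed in the totals for these shares, which lowers the value most in neurons.

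**Figure D5:**
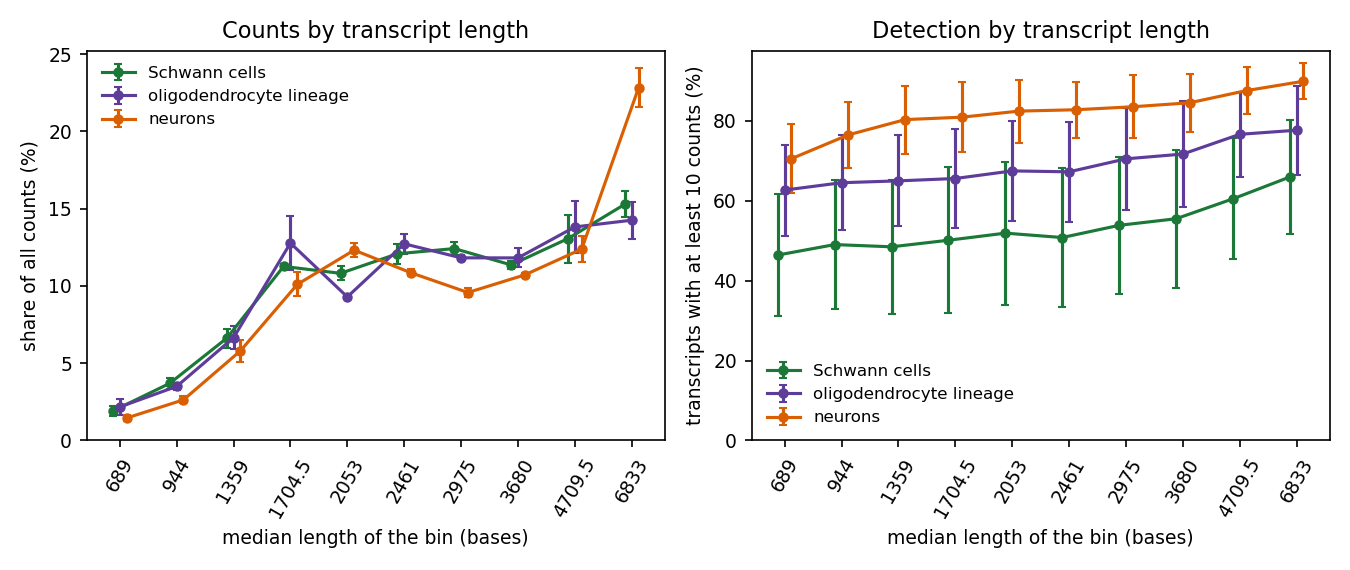
Share of all counts (left, %) and share of transcripts with at least 10 counts (right, %) in 10 bins of the 23682 expressed transcripts ordered by length, as mean and SD over 3 libraries of each group. The longest bin takes 22.8% of counts in neurons, against 15.3% in Schwann cells and 14.2% in oligodendrocyte lineage cells.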

How the data were processed

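Per the file headers, each of the 9 deposited files gives a transcript length, an effective length (lengths in bases, other than counts in kind) and an estimated count for each transcript ID. The build danRer10 and the tools RSEM 1.2.15, Bowtie2 2.1.0, Trimmomatic and FastQC are named in the submitters' processing notes, with no role or order. Which program wrote the files, and from which annotation release, is not given in the sources used here. RNA was amplified with a Smartseq v4 kit, per the labels' protocols.

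TPM were computed from deposited estimated counts and effective lengths. For testing, estimated counts were rounded to integers. The test was that of edgeR 4.0.16 under R 4.3.3: filterByExpr by group, TMM factors, a quasi-likelihood fit with group as its term on all 9 libraries, two-sided, Benjamini-Hochberg adjusted over all 23408 tested transcripts, called under 0.05. The common biological coefficient of variation was 1.584. Standard errors are those implied by the fitted value and F. The scripts were tested on simulated data with a smaller spread than these libraries. That test does not show how the fit performs at the spread seen here. Alternatives were other scalings and filters, DESeq2 1.42.0, limma 3.58.1, a length offset, a replicate block, only the groups compared, and leaving out each library.

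The members, the lists and the rule for named transcripts were chosen with earlier results of these data known. The rule took the 5 longest members, the 5 with the highest mean TPM, the 2 with the smallest coefficient of variation, and per comparison and direction at most 2 members: called ones, then those with the lowest p that did not overlap and reached 5 CPM. Gene lists and marker lists were not analysed here, because the IDs carry no gene names.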

Additional observations from a re-analysis of the deposited data

How the results depend on the processing

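Calls depended strongly on the tool, and the cause was not tested. Among the 200 longest, Schwann cells against oligodendrocyte lineage cells gave 2 calls, but 36 with DESeq2, 5 with limma on log2(TPM + 1), and 0 with DESeq2 size factors, upper-quartile factors, only the groups compared or the replicate block. Schwann cells against neurons gave 0, but 24 with DESeq2, 17 with voom, 12 with limma and 1 without a filter. Oligodendrocyte lineage cells against neurons gave 0, but 17 with DESeq2, 14 with voom, 8 with limma and 2 with only the groups compared. Leaving out a library gave 0 to 4, 0 to 1 and 0 calls in these 3 comparisons. Over all tested transcripts the first comparison gave 186 calls, but 107 with upper-quartile factors, 3350 with DESeq2, 511 with voom, 887 with limma, 6 with only the groups compared and 2 with the replicate block, and 1 to 379 without a library. The second gave 83, but 48, 3161, 1677, 1797, 15 and 0 under the same settings, 144 without a filter, and 1 to 118 without a library. The third gave 20, but 8, 2034, 2130, 1270, 278 and 0, with 65 unfiltered and 0 to 58 without a library. Same-numbered libraries correlated at -0.036 to 0.028 in their deviations from the group mean, and others at -0.0354 to 0.0399. These values cannot tell whether same-numbered samples shared parents or a sorting run, since a shared origin need not leave a common deviation.

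The log2 ratio of the members' count share, Schwann cells over oligodendrocyte lineage cells, was 0.30, with 0.51 for the 100 longest, 0.036 for the 200 longest chosen anew with at least 10 counts in all 9 libraries, and 0.16 to 0.41 without a library. Oligodendrocyte lineage cells over neurons it was -0.10, with 0.33 for the list chosen anew in that way and -0.35 for the list without its 10 leading members, and -0.26 to 0.01 without a library. Schwann cells over neurons it was 0.20, with 0.46 for the 100 longest, -0.01 without the 10 leading members, and 0.03 to 0.32 without a library. The counts of ENSDART00000009393.7 stayed in the totals for these count shares, which lowers them most in neurons. The ratio to the median list changed between Schwann cells and oligodendrocyte lineage cells by 0.13, with -0.29 for lists chosen anew in that way, 0.36 for whole-number transcripts and 0.02 to 0.23 without a library. Against neurons it was 0.09, with -0.38 for lists chosen anew and -0.06 to 0.23 without a library, and for oligodendrocyte lineage cells -0.04, with -0.28 to 0.17 over 9 other settings and -0.19 to 0.10 without a library. The gap in members detected was -22.33 between the glial groups (-40.67 to -11.67 without a library), -53.33 for Schwann cells minus neurons (-24.67 for the 100 longest, -100.7 for the 400 longest, -71.67 to -42.67 without a library), and -31.0 for oligodendrocyte lineage cells minus neurons (-58.67 for the 400 longest, -39.17 to -18.67 without a library). These gaps are numbers of transcripts, so those of the 100 and 400 longest scale with the size of the list and are not a change in share. Depth limits members under 10 counts.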
